A study of Mus musculus with 2 samples.

Results

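The 10 chemokine and chemokine receptor genes described here place lymphocytes and dendritic cells in lymphoid tissue, and they were measured in single cells of the mouse optic nerve. They are the ligands Cxcl13, Cxcl12, Ccl22 and Ccl17, the receptors Cxcr5, Cxcr4, Ccr7, Ccr4 and Ccr8, and the scavenging receptor Ackr3. They were chosen by symbol, 10 of the 32285 genes measured, and all 10 had UMIs (unique molecular identifiers, each counting 1 captured RNA molecule) in both libraries. Both libraries came from Nf1-OPG mice (Nf1flox/neo; GFAP-Cre), which carry a neomycin cassette in exon 31 of 1 Nf1 allele and lose the other in cells where the GFAP promoter drives Cre, the neuroglial progenitors. These mice serve as a model of optic glioma, and control mice carry the same alleles. Between 6 and 12 weeks of age one group was given vancomycin, an antibiotic, and the other is labelled control, for which the series design names PBS. Tissue of 10 mice aged 12 weeks was pooled for each library and run on the 10x Genomics 5′ chemistry, so each group is 1 library and no test between groups was possible. The tissue label is optic nerve, while the protocol also describes sorted cells of the meningeal dura, so which tissue each cell came from is not known.

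Lymphoid tissue is laid out by a few chemokines. CXCL13 draws CXCR5-bearing B cells and follicular helper T cells into follicles, the CCR7 ligands CCL19 and CCL21 draw naive T cells and mature dendritic cells into the T cell zone, and CXCL12 holds CXCR4-bearing cells in bone marrow and tissue niches. ACKR3 binds CXCL12 without classical G protein signalling and removes it. CCL17 and CCL22, made mainly by dendritic cells, bind CCR4, while CCR8, whose best known mouse ligands are CCL1 and CCL8, marks tissue regulatory T cells and group 2 innate lymphoid cells.

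The members lie on chromosomes 1, 5, 6, 8, 9 and 11 of GRCm38. Cxcl13 is at 95956951 to 95961068 on chromosome 5, and Ccl22 (94745590 to 94751699) and Ccl17 (94810453 to 94812036) are neighbours on chromosome 8 with 58753 bases between them. The upstream windows of Cxcl13 and Ccl17 are shown because these were the ligands with the largest CPM ratios in the gates that hold most of their UMIs. They are the 250 bases before the RefSeq start of each gene (GRCm38.p6, plus strand, chr5:95956689-95956938 and chr8:94810203-94810452), with a TATA box motif in capitals.
Cxcl13: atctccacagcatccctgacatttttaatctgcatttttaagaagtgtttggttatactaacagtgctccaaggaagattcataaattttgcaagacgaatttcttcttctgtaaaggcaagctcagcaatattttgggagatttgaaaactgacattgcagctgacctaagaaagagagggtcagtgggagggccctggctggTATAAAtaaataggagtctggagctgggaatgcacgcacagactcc
Ccl17: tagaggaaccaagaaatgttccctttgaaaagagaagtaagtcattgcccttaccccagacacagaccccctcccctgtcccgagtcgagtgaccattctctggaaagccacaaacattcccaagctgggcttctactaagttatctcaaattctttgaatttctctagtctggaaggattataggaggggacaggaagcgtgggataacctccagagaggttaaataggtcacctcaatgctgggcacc
TATAAA, searched on both strands, began at position -46 from the start of Cxcl13 on the plus strand and was not found in the window of Ccl17. Among 32851 RefSeq windows of this length 12.4% held it. The NF-kappaB consensus GGGRNNYYCC (R is A or G, Y is C or T, N is any base) matched in 7.25% of windows. It matched in none of the 8 members that have an entry. Sites that differ from this pattern were not searched, so whether these windows hold other NF-kappaB sites was not tested.

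The vancomycin library held 15726 cells after filtering (median 6970 UMIs) and the control library 4108 (median 4870.5 UMIs). Cells were assigned by fixed marker gates, and in every gate compared all markers of that gate were detected. In the control library 0 of 4108 cells passed the oligodendrocyte gate (exact 95% upper limit 0.0898%), against 3821 in the vancomycin library, while clustering of both libraries placed 23 control and 4470 vancomycin cells with oligodendrocytes. The libraries share 100 barcodes (0.603% of vancomycin and 2.34% of control barcodes), and 14.0% of vancomycin and 5.53% of control cells carried markers of 2 types and were set aside as mixed. The pools also differed in their mix of mice: cells with Xist and no Y gene (Ddx3y, Eif2s3y, Kdm5d and Uty were read) made up 18.0% of vancomycin and 49.9% of control cells, and cells with a Y gene and no Xist 44.1% and 14.1%. For the main library differences values are given in these classes of cells too, while the part of the mix in the other differences was not tested.

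Levels are CPM, a gene's counts per 1000000 UMIs of its gate in 1 library, with exact 95% Poisson intervals that cover counting error only. A gene counted as measured in a gate with at least 30 UMIs over both libraries and at least 10 CPM in the higher one, and as higher or lower at a 2-fold difference after adding 10 CPM to both. In all, 9 gates could be compared: T cells and their CD8, CD4 conventional and regulatory subsets, NK cells, plasma cells, microglia, astrocytes and fibroblasts. Of 34 measured pairs of member and gate, 8 were at least 2-fold higher with vancomycin and 0 were at least 2-fold lower. Cxcl13 gave 7 of the 8 (of 8 gates where it was measured) and Cxcr5 in CD4 conventional T cells the last. Among all measured genes the shares at least 2-fold higher were 2.61% in T cells, 2.69% in CD8, 3.26% in CD4 conventional and 3.72% in regulatory T cells, 3.58% in NK cells, 3.92% in plasma cells, 3.0% in microglia, 6.14% in astrocytes and 2.59% in fibroblasts. In the same order the shares at least 2-fold lower were 1.57%, 1.97%, 1.87%, 1.95%, 5.79%, 2.15%, 2.76%, 4.07% and 2.51%. The T cell subsets lie within the T cell gate, and with the T cell gate as 1 unit 17 pairs were measured, 4 of them higher.

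**Figure D1:**
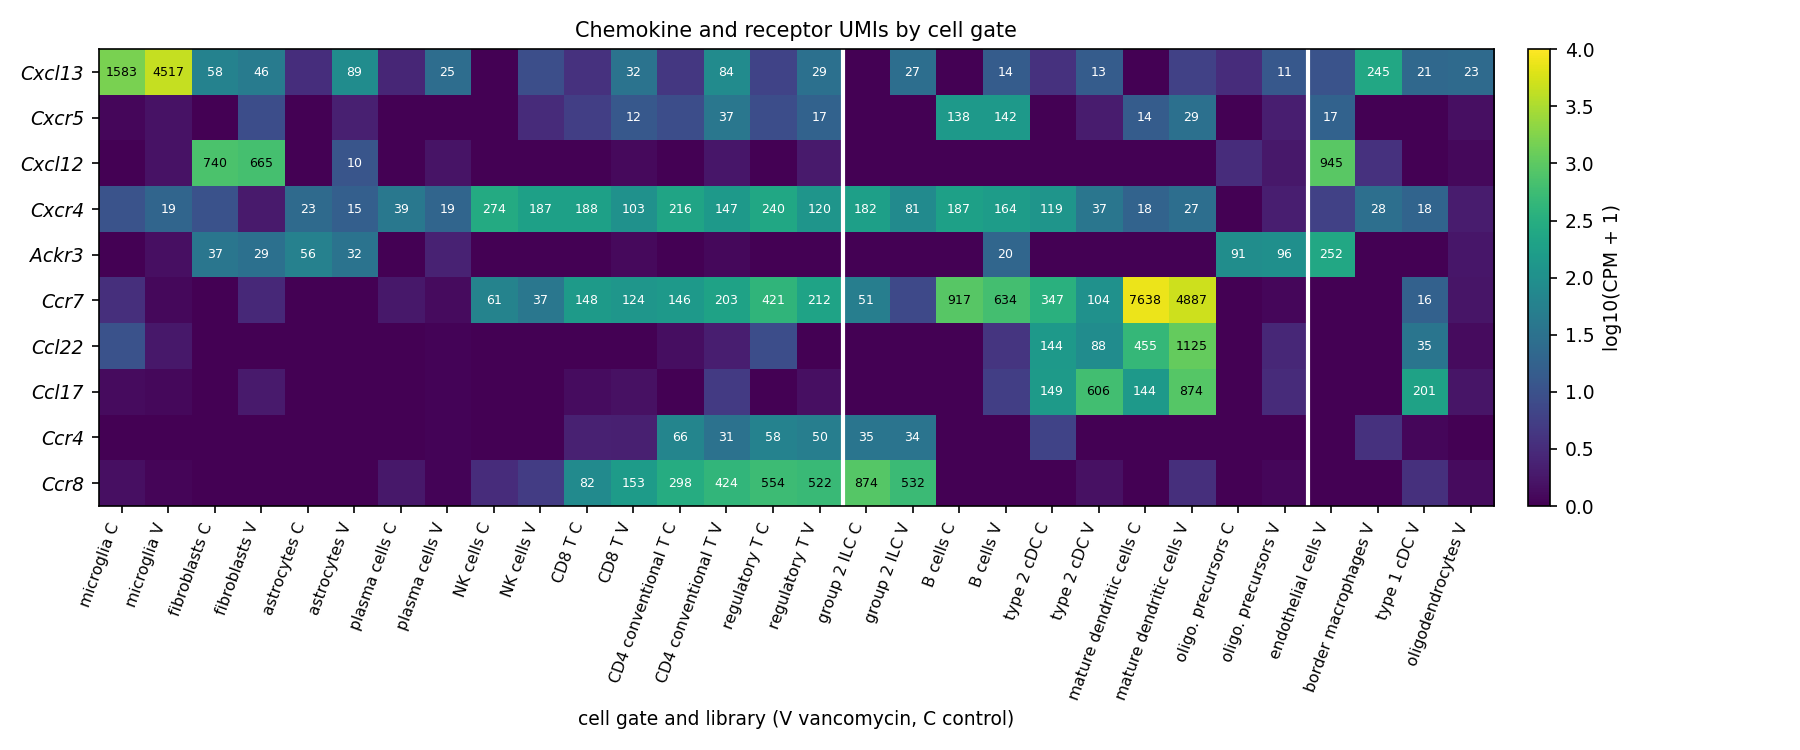
Level of each member (rows) in each gate and library (columns), coloured by log10(CPM + 1) with values of 10 CPM or more printed; V is vancomycin and C is control, and white lines part gates with enough cells in both libraries, gates with 20 to 49 cells in control, and gates read in the vancomycin library only. Cxcl13 peaks in microglia (4517 and 1583 CPM), Cxcl12 in endothelial cells and fibroblasts, Ccr7 in mature dendritic cells and Ccr8 in regulatory T and group 2 innate lymphoid cells.

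Cxcl13, the B cell attractant, was mostly found in microglia in both libraries. Microglia held 38866 of 61629 Cxcl13 UMIs with vancomycin (63.1%) and 10071 of 13277 in the control (75.9%), and mixed cells held 27.8% and 18.0%. Its level was 4517 CPM (4472 to 4562) in 1223 vancomycin microglia and 1583 CPM (1552 to 1614) in 1072 control microglia. The vancomycin library was thus the higher one, 2.85-fold (2.79 to 2.92), a log2 ratio of 1.51. The difference was not seen near the edge of the gate: cells with 3 of the 8 microglia markers had 2873 CPM with vancomycin and 3400 CPM in the control, and those with 4 had 4300 and 4406 CPM. Cells with 7 markers had 4204 and 870 CPM, and those with 8 had 2386 and 832 CPM.

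Both the share of microglia with Cxcl13 and the number of heavy producers were higher with vancomycin. A Cxcl13 UMI was seen in 705 vancomycin (57.6%) and 301 control microglia (28.1%), and after each cell was thinned to 1000 UMIs in 48.4% and 20.9%. In 10 gates of lymphoid, dendritic, endothelial and oligodendrocyte lineage cells of the vancomycin library, thinned shares ran from 0% to 1.67%. The microglial share stands above that level. Border-associated macrophages, astrocytes (88.6 CPM), fibroblasts (45.6 CPM) and hormone cells were left out of these 10. In hormone cells of that library 98.4% of Cxcl13 UMIs (372 UMIs) lay in the 47.4% of cells with a microglia marker UMI. Cells with at least 50 Cxcl13 UMIs numbered 223 with vancomycin and 53 in the control, and they carried 80.9% and 74.4% of all microglial Cxcl13 UMIs. Their median depth was 11805 and 11869 UMIs, against 5265 and 4708 in microglia with no Cxcl13 UMI. Most Cxcl13 RNA therefore came from under 1 in 5 microglia, 18.2% with vancomycin and 4.94% in the control.

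**Figure D2:**
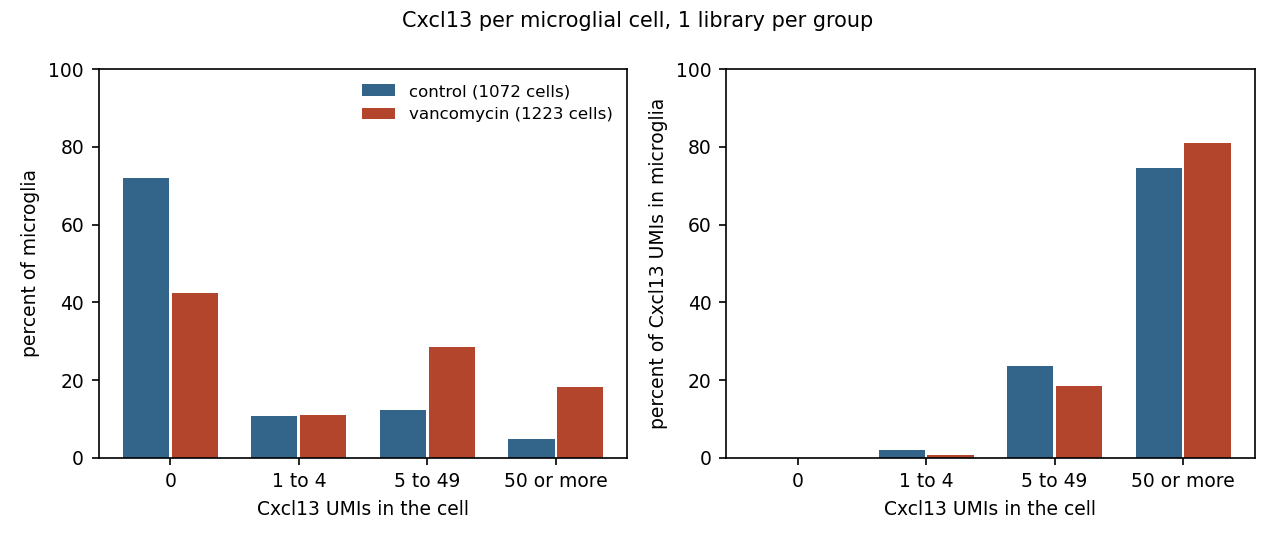
Percent of microglia (left) and percent of their Cxcl13 UMIs (right) by the number of Cxcl13 UMIs in the cell, for 1223 vancomycin and 1072 control cells. Cells with 50 or more UMIs are 18.2% and 4.94% of microglia and hold 80.9% and 74.4% of the UMIs.

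The library difference in microglial Cxcl13 ran in opposite directions in the 2 classes of cells by sex chromosome genes. In the vancomycin library, Cxcl13 was 447 CPM (414 to 482) in 243 microglia with Xist and 5712 CPM (5645 to 5780) in 500 with a Y gene. In the control library it was 1601 CPM (1559 to 1644) in 387 microglia with Xist and 366 CPM (336 to 398) in 201 with a Y gene. Vancomycin over control was 0.279 (0.257 to 0.302) in Xist cells, a log2 ratio of -1.82, and 15.6 (14.3 to 17.0) in Y gene cells, a log2 ratio of 3.93. In the 4 comparisons the gene was past 2-fold where 3.29% of measured genes were lower among Xist cells, 4.27% higher among Y gene cells, 1.83% higher in Y gene than Xist cells with vancomycin, and 0.623% lower in the control. Microglia with neither read stood at 4773 CPM with vancomycin and 2878 CPM in the control, at median depths of 3867 and 1847 UMIs. How many mice of each sex entered a pool is not given in the labels, so the treatment and the mix of mice cannot be told apart.

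Microglia with Cxcl13 also differed from the rest in other genes, and for most of the genes that were higher this held in both libraries. The 15 genes with the highest ratio in vancomycin microglia (573 with against 611 without a Cxcl13 UMI after thinning) were read again in 203 and 768 control microglia, where 12 of 15 were at least 2-fold higher (1.13% of measured genes were). They were led by Cxcl9, a CXCR3 ligand induced by interferon gamma, at 1070 against 151 CPM with vancomycin and 462 against 13.5 CPM in the control. The complement genes C3 (207 against 47.6 CPM and 93.2 against 9.76 CPM) and Cfb (263 against 56.4 CPM and 116 against 9.76 CPM) were also among them. Cxcl10 and Spp1 were not: Cxcl10 was 448 against 91.7 CPM with vancomycin and 131 against 193 CPM in the control.

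Of the 15 lowest genes, 8 were at least 2-fold lower in the control as well (0.798% of measured genes), among them Hpgd (54.6 against 259 CPM and 76.1 against 312 CPM) and the homeostatic microglial gene Fcrls (11.3 against 60.4 CPM and 50.7 against 175 CPM). Among the 15 were also the haemoglobin genes Hbb-bs (2952 against 10948 CPM and 20.6 against 69.3 CPM), Hba-a1 and Hba-a2, which mark red blood cells, and their part in the result was not tested. Xist headed this list with vancomycin at 25.6 against 242 CPM, while in the control it was 485 against 414 CPM. Cells with and without Cxcl13 thus differed in Xist in the vancomycin library, and the part of this in the gene differences was not tested. Cxcl9 followed the same pattern by class of cell as Cxcl13, at 843 CPM in Y gene and 48.0 CPM in Xist microglia with vancomycin, and 1.33 and 101 CPM in the control.

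Outside microglia Cxcl13 was low, and part of it lay in cells that also carried a microglia marker. Border-associated macrophages of the vancomycin library stood next at 245 CPM (197 to 302). T cells had 46.2 CPM (43.1 to 49.4) with vancomycin and 4.46 CPM (3.27 to 5.95) in the control, and oligodendrocytes, which are not known as a source, 23.1 CPM with vancomycin. In vancomycin T cells 53.3% of Cxcl13 UMIs lay in the 24.8% of cells with a microglia marker UMI, and the other T cells stood at 32.4 CPM. In vancomycin plasma cells (25.5 CPM, against 2 UMIs in the control) that share was 92.8%, and in oligodendrocytes 91.3%. A few T cells carried many copies: 30 of 3607 had at least 5 UMIs, 1 had 114, and the top 10 cells held 51.7% of the T cell UMIs. CD4 conventional T cells had 84.1 CPM (75.6 to 93.4) against 3.50 CPM (1.60 to 6.64), and without cells that had a microglia marker UMI 41.2 against 3.40 CPM. By class the difference was seen in Y gene CD4 conventional T cells, at 75.3 against 2.21 CPM (167 UMIs against 1), and could not be resolved in Xist cells, at 3.02 against 2.52 CPM (1 UMI against 4; ratio interval 0.0243 to 12.1). Over all T cells the values were 23.5 against 4.29 CPM with Xist (5.48, 3.24 to 9.29) and 51.8 against 1.37 CPM with a Y gene. The part of microglial RNA in these values was not tested.

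In fibroblasts the direction of Cxcl13 depended on how cells were assigned. By gate it was 45.6 CPM with vancomycin and 58.5 CPM in the control (ratio 0.780, 0.487 to 1.26), and by cluster 270 and 61.9 CPM. Of these fibroblast UMIs 95.7% and 96.9% were in cells with a microglia marker UMI. Astrocytes had 69 UMIs with vancomycin (88.6 CPM) and 1 in the control (2.34 CPM), a ratio of 37.9 with a counting interval of 6.57 to 1517. In astrocytes 81.2% of the vancomycin UMIs were in cells with a microglia marker UMI.

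Cxcr5, the receptor for CXCL13, was highest in B cells, at levels whose ratio between libraries had an interval around 1. B cells had 142 CPM (122 to 164; 253 cells) with vancomycin and 138 CPM (75.5 to 232; 23 cells) in the control library, a ratio of 1.03 (0.598 to 1.92). CD4 conventional T cells had 37.4 CPM (31.8 to 43.7) with vancomycin and 7.77 CPM (4.75 to 12.0) in the control library, a ratio of 4.81 (3.01 to 8.10). In CD4 conventional T cells with Xist it was 12.1 against 10.7 CPM (1.13, 0.276 to 3.45), and in those with a Y gene 45.5 against 2.21 CPM (101 UMIs against 1). The CPM ratio was 2.58 (1.64 to 4.23) in CD8 T cells, at 11.8 and 4.56 CPM, and 2.19 (0.916 to 6.35) in regulatory T cells, at 17.3 and 7.91 CPM. In T cells with a Y gene Cxcr5 stood at 23.4 CPM with vancomycin (238 UMIs) and 0.685 CPM in the control (1 UMI), and in T cells with Xist at 11.4 and 7.29 CPM. Mature dendritic cells had 29.5 CPM with vancomycin (12 UMIs) and 13.5 CPM in the control (3 UMIs), and plasma cells of the vancomycin library, which derive from B cells, had 0 UMIs in 487 cells.

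Cxcl12, the ligand that holds CXCR4-bearing cells, was highest in stromal cells, and by gate fibroblasts had no library difference past the counting interval. Fibroblasts had 665 CPM (616 to 717; 186 cells) with vancomycin and 740 CPM (670 to 816; 91 cells) in the control library, a ratio of 0.898 (0.793 to 1.02). With clusters in place of gates fibroblasts had 340 and 556 CPM, a log2 ratio of -0.69, so the size of the difference depended on how cells were assigned. Endothelial cells, with enough cells in the vancomycin library only (98 against 1), had 945 CPM (854 to 1044), the highest level of Cxcl12 in any gate with at least 50 cells. In 32 mural cells of that library, under the minimum, it was 397 CPM. T cells, microglia and oligodendrocytes of the vancomycin library lay between 0.223 and 0.581 CPM. Within Xist fibroblasts the values were 710 CPM with vancomycin and 841 CPM in the control library, a log2 ratio of -0.24.

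Ackr3, the CXCL12 scavenger, was found mainly in vessel cells and glia and was near absent in T cells. In the vancomycin library it was 252 CPM (206 to 305) in endothelial cells, 484 CPM in 32 mural cells and 96.4 CPM (88.9 to 104) in oligodendrocyte precursors, which held 50.7% of its UMIs. The control oligodendrocyte precursors (46 cells) had 91.1 CPM (65.1 to 124), a ratio of 1.06 (0.768 to 1.5). Astrocytes had 32.1 and 56.2 CPM (ratio 0.571, 0.313 to 1.05) and fibroblasts 29.1 and 36.6 CPM (ratio 0.797, 0.438 to 1.48), and neither interval leaves out 1. T cells had 6 UMIs with vancomycin, 0.334 CPM.

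Cxcr4, the signalling receptor for CXCL12, was spread over lymphocytes and was lower with vancomycin in the T cell and NK cell gates compared. In T cells it was 123 CPM (118 to 128) with vancomycin and 205 CPM (196 to 213) in the control library, a ratio of 0.601 (0.566 to 0.639). NK cells had 187 and 274 CPM (ratio 0.682, 0.514 to 0.901), CD8 T cells 103 and 188 CPM (0.551, 0.501 to 0.605), CD4 conventional T cells 147 and 216 CPM (0.679, 0.605 to 0.763), regulatory T cells 120 and 240 CPM (0.502, 0.413 to 0.610) and plasma cells 19.3 and 39.0 CPM (0.496, 0.358 to 0.699). None reached 2-fold after 10 CPM was added, and in plasma cells the log2 ratio of -0.74 was 1.53 with cells thinned to 1000 UMIs. Unlike Cxcl13 in microglia, the direction held in both classes of T cells: 130 against 203 CPM in Xist cells (ratio 0.641, 0.547 to 0.748) and 113 against 218 CPM in Y gene cells (0.518, 0.457 to 0.588). Microglia went the other way at low level, 19.2 and 9.59 CPM (ratio 2.0, 1.48 to 2.73). In B cells the values were 164 and 187 CPM (0.877, 0.548 to 1.49).

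**Figure D3:**
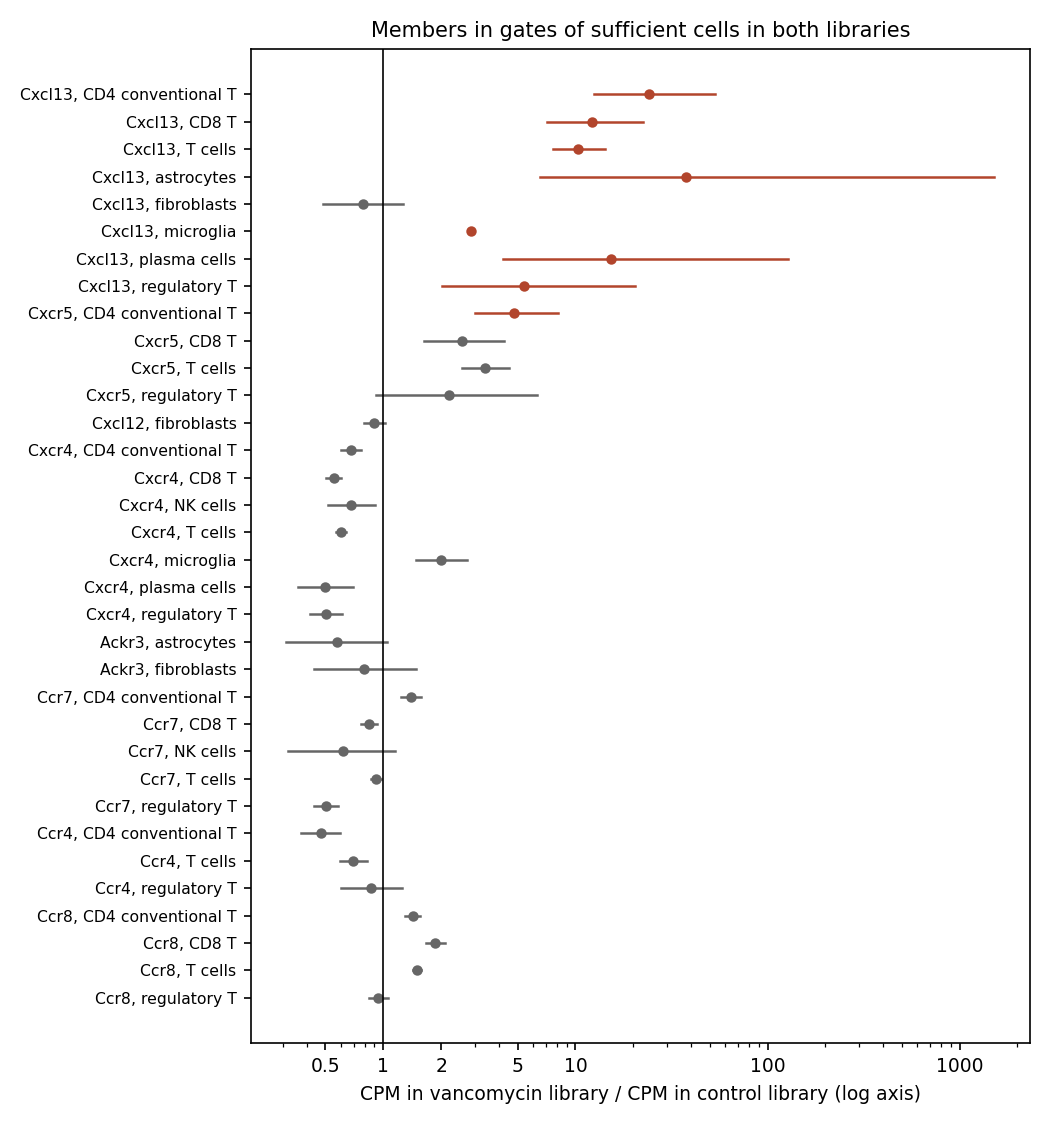
CPM ratio of vancomycin to control for the 34 measured pairs of member and gate, on a log axis, with exact 95% counting intervals (points without a visible line have intervals narrower than the point); red marks at least 2-fold after adding 10 CPM. Cxcl13 ratios lie right of 1 in 7 of 8 gates and Cxcr4 ratios left of 1 in 6 of 7, with microglia on the right.

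Ccr7, which guides cells to the T cell zone, marked mature dendritic cells in both libraries. These cells had 4887 CPM (4675 to 5107; 55 cells) with vancomycin and 7638 CPM (7279 to 8010; 33 cells) in the control library, a ratio of 0.640 (0.599 to 0.683). With clusters in place of gates mature dendritic cells had 2750 and 6935 CPM, a log2 ratio of -1.33, so the size of the difference depended on how cells were assigned. By gate B cells followed at 634 CPM (592 to 679) and 917 CPM (740 to 1123), a ratio of 0.692 (0.558 to 0.866). Type 2 conventional dendritic cells, which take up antigen before they mature, had 104 CPM (95.8 to 112; 562 cells) and 347 CPM (289 to 412; 39 cells), a ratio of 0.300 (0.247 to 0.365).

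Among T cells the sign of the Ccr7 difference depended on the subset. All T cells had 158 CPM (152 to 164) with vancomycin and 173 CPM (165 to 181) in the control library, a ratio of 0.913 (0.861 to 0.970). Regulatory T cells had 212 and 421 CPM (0.503, 0.435 to 0.583), CD8 T cells 124 and 148 CPM (0.839, 0.763 to 0.923) and CD4 conventional T cells 203 and 146 CPM (1.39, 1.23 to 1.58). NK cells stood at 37.4 and 60.9 CPM, within counting error (0.614, 0.320 to 1.15). In CD8 T cells the 2 classes differed in sign: 82.8 against 172 CPM in Xist cells (0.481, 0.358 to 0.634) and 142 against 105 CPM in Y gene cells (1.36, 1.08 to 1.73). For the CCR7 ligands Ccl19, Ccl21a, Ccl21b and Ccl21c the files list 0 UMIs over all kept cells of both libraries, so no cell source was seen. Ccl21 genes are near-identical copies of each other, and reads that match several copies can be lost in counting.

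Ccl22 and Ccl17, the CCR4 ligands, were highest in dendritic cells. The control library held 39 type 2 conventional and 33 mature dendritic cells, under the minimum of 50, so these comparisons were added after the cell counts were seen. Ccl17 in type 2 conventional dendritic cells was 606 CPM (586 to 626) with vancomycin and 149 CPM (112 to 194) in the control library, a ratio of 4.06 (3.12 to 5.41). In mature dendritic cells it was 874 CPM (786 to 970) and 144 CPM (98.5 to 203), a ratio of 6.07 (4.22 to 9.01). Few control cells carried Ccl17: 6 type 2 cells, and 6 of the 32 mature cells with Ccr7 and 0 of the 1 without. The counting intervals of these ratios do not cover this spread between cells. The mature gate held 34 Y gene cells and 1 Xist cell with vancomycin, against 6 and 15 in the control. Its Ccl17, Ccl22 and Ccr7 ratios could thus not be read by class, and the treatment and the mix of mice cannot be told apart. Type 1 conventional dendritic cells, 372 with vancomycin and 5 in the control, had 201 CPM (190 to 214) with vancomycin.

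Ccl22 was higher with vancomycin in mature dendritic cells, at 1125 CPM (1024 to 1233) and 455 CPM (370 to 552), a ratio of 2.47 (1.99 to 3.10). With clusters in place of gates the values were 857 and 602 CPM, a log2 ratio of 0.50, which is under 2-fold. In type 2 conventional dendritic cells it was 87.7 CPM (80.3 to 95.5) and 144 CPM (108 to 188), a ratio of 0.610 (0.459 to 0.826), and the difference between the 2 subsets was not tested. Over the 5 added gates 15 pairs were measured, 3 of them higher (Ccl17 in both dendritic cell gates and Ccl22 in mature dendritic cells) and 3 lower (Cxcr4 in group 2 innate lymphoid and type 2 conventional dendritic cells, and Ccr7 in the latter). Of all measured genes 5.38% were higher and 13.1% lower in group 2 innate lymphoid cells, 14.0% and 8.01% in B cells, 5.99% and 3.41% in type 2 conventional dendritic cells, 7.60% and 9.22% in mature dendritic cells, and 4.27% and 2.79% in oligodendrocyte precursors. In type 2 conventional dendritic cells of the vancomycin library Ccl17 was 740 CPM in 314 Y gene cells and 325 CPM in 84 Xist cells, and the control gate had too few cells of either class. Control microglia carried 59 Ccl22 UMIs (9.28 CPM) and vancomycin microglia 7 (0.814 CPM).

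**Figure D4:**
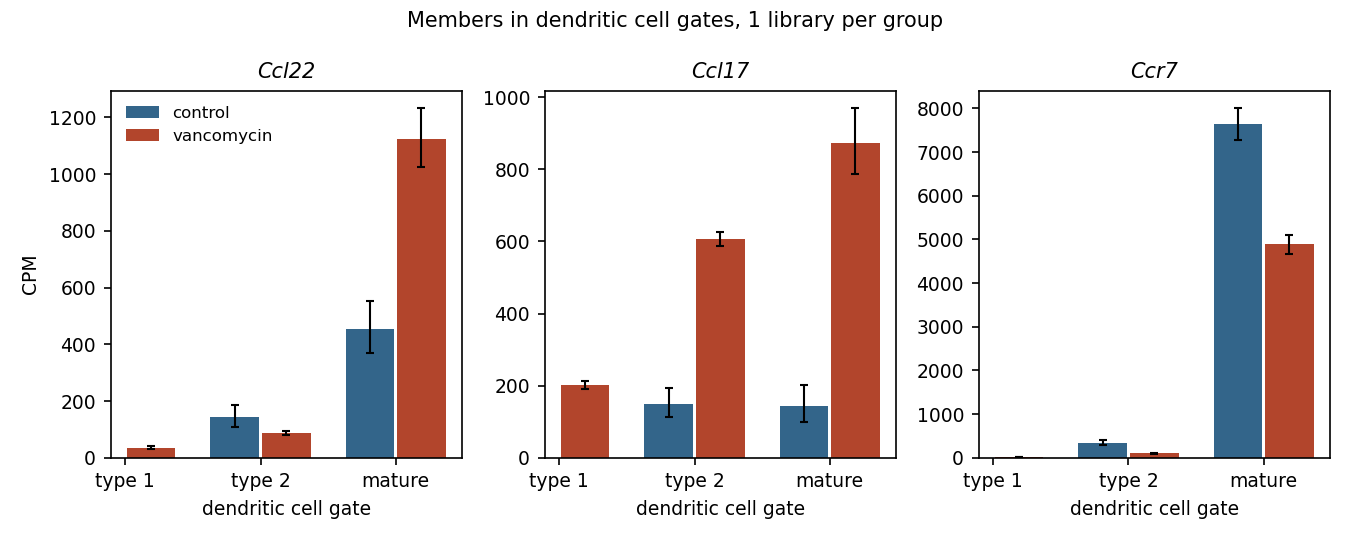
CPM of Ccl22, Ccl17 and Ccr7 in type 1 conventional, type 2 conventional and mature dendritic cells, with exact 95% counting intervals; type 1 cells of the control library (5 cells) are not drawn. Ccl17 is higher with vancomycin in both gates that can be compared (606 against 149 CPM and 874 against 144 CPM), while Ccr7 is lower in both.

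In each dendritic cell gate of the vancomycin library, cells with one ligand held the other at a higher share than cells without it. Of 40 mature dendritic cells with Ccl22 in the vancomycin library, 62.5% (exact interval 45.8 to 77.3%) had Ccl17, against 13.3% (1.66 to 40.5%) of the 15 without, which were also shallower (median 3034 against 7861.5 UMIs). Among type 1 conventional dendritic cells, where depth was nearly level (15216.5 and 14426.5 UMIs), 20.6% (13.9 to 28.8%) of Ccl17 cells and 1.63% (0.445 to 4.11%) of the others had Ccl22. In type 2 cells the shares were 38.7% (33.2 to 44.5%) and 10.6% (7.14 to 14.9%), at depths of 11457 and 8639 UMIs. In the control library few cells could be read: Ccl17 was in 26.3% (9.15 to 51.2%) of 19 mature dendritic cells with Ccl22 and 7.14% (0.181 to 33.9%) of 14 without, and Ccl22 in 16.7% (0.421 to 64.1%) of 6 type 2 cells with Ccl17 and 21.2% (8.98 to 38.9%) of 33 without.

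Ccr4, the receptor for CCL17 and CCL22, was highest in CD4 T cells and was lower with vancomycin in conventional ones. CD4 conventional T cells had 31.2 CPM (26.0 to 37.0) with vancomycin and 66.0 CPM (56.5 to 76.7) in the control library, a ratio of 0.472 (0.373 to 0.596). Regulatory T cells had 50.1 and 58.0 CPM (ratio 0.864, 0.603 to 1.26). Over all T cells it was 19.1 and 27.4 CPM (0.699, 0.595 to 0.821), while CD8 T cells had 1.27 and 1.33 CPM. In CD4 conventional T cells the value was lower with vancomycin in both classes, 27.2 against 73.7 CPM in Xist cells (0.368, 0.164 to 0.723) and 35.6 against 44.3 CPM in Y gene cells (0.804, 0.488 to 1.39), the second within counting error.

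Ccr8 was highest in group 2 innate lymphoid cells and regulatory T cells. Group 2 innate lymphoid cells had 532 CPM (421 to 663; 32 cells) with vancomycin and 874 CPM (749 to 1015; 49 cells) in the control library, a ratio of 0.609 (0.460 to 0.799). Regulatory T cells had 522 CPM (492 to 554) and 554 CPM (502 to 609), a ratio of 0.943 (0.842 to 1.06). The other T cells were higher with vancomycin: CD4 conventional T cells at 424 and 298 CPM (1.42, 1.31 to 1.55) and CD8 T cells at 153 and 82.1 CPM (1.87, 1.67 to 2.09). B, plasma, stromal and glial gates of the vancomycin library held at most 12 Ccr8 UMIs each.

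As for Cxcl13, the library difference in Ccr8 changed sign between the classes of cells. CD8 T cells with Xist had 52.7 CPM (138 cells) with vancomycin and 106 CPM (572 cells) in the control library, a ratio of 0.496 (0.341 to 0.701). CD8 T cells with a Y gene had 182 CPM (692 cells) with vancomycin, while the 126 control cells held 1 Ccr8 UMI (1.29 CPM), a ratio of 141 with a counting interval of 25.2 to 5575. In CD4 conventional T cells the values were 263 against 360 CPM with Xist (0.729, 0.575 to 0.915) and 435 against 55.4 CPM with a Y gene (7.86, 5.29 to 12.2). Within the control library Ccr8 was therefore lower in Y gene than in Xist T cells (47.9 against 231 CPM), and within the vancomycin library higher (316 against 154 CPM). In Y gene cells 5.39% of all measured genes were at least 2-fold higher with vancomycin in T cells, 6.54% in CD8 and 9.62% in CD4 conventional T cells, while Ccr8 in Xist cells did not reach 2-fold in these gates.

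**Figure D5:**
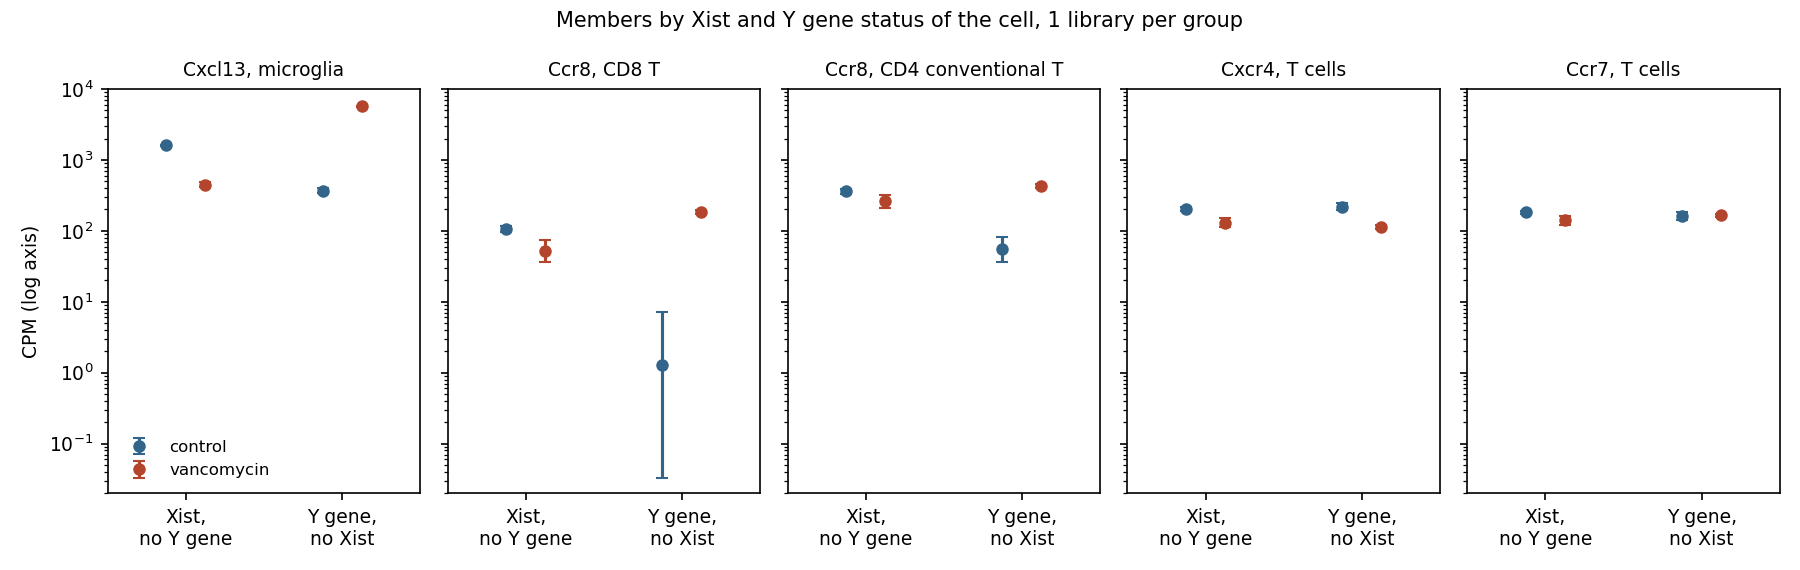
CPM (log axis) of Cxcl13 in microglia, Ccr8 in CD8 and CD4 conventional T cells, and Cxcr4 and Ccr7 in T cells, in cells with Xist and no Y gene and in cells with a Y gene and no Xist, with exact 95% counting intervals. Blue (control) and red (vancomycin) change order between the classes for Cxcl13 and Ccr8, and red stays below blue for Cxcr4.

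T cells with and without Ccr8 were compared in both libraries, with the subsets pooled. With vancomycin Ccr8 was 522 CPM in regulatory, 424 CPM in CD4 conventional and 153 CPM in CD8 T cells. The part of the subset mix in the gene lists was not tested. Of the 15 genes highest in Ccr8 T cells with vancomycin, 12 were at least 2-fold higher in the control too (1.14% of measured genes). They included Tnfrsf4, the costimulatory receptor OX40 (1318 against 482 CPM with vancomycin, 1194 against 308 CPM in the control), Foxp3 (148 against 62.0 CPM and 144 against 45.2 CPM), Il2ra (157 against 70.8 CPM and 170 against 66.1 CPM) and Il10 (85.7 against 36.7 CPM and 56.4 against 17.6 CPM). Of the 15 lowest, 10 were at least 2-fold lower in the control (0.466% of measured genes), led by Ly6c2 (65.3 against 596 CPM and 131 against 737 CPM), with the cytotoxic granule gene Gzma and Klf2, a regulator of lymphocyte exit. The antigen presentation genes H2-Ab1 (31.1 against 116 CPM and 73.8 against 18.2 CPM), H2-Eb1 and H2-Aa were also among the 15 and went the other way in the control. The part of RNA from other cells in this list was not tested. Ccr4 was found in 20.3% (17.0 to 23.9%) of control T cells with Ccr8 and in 4.81% (3.70 to 6.13%) of those without, and with vancomycin in 9.90% (8.48 to 11.5%) and 5.02% (4.11 to 6.07%). These shares pool the subsets. In CD4 conventional T cells they were 31.7% (25.3 to 38.6%) and 11.6% (8.24 to 15.7%) in the control, and 11.2% (8.57 to 14.3%) and 8.51% (6.15 to 11.4%) with vancomycin. In regulatory T cells they were 21.3% and 20.6% in the control and 16.8% and 13.7% with vancomycin, with overlapping intervals.

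T cells with Ccr7 were compared in the same way, with the subsets pooled, and the part of the subset mix was again not tested. Of their 15 lowest genes with vancomycin, 9 were at least 2-fold lower in the control (0.851% of measured genes), among them Gzmb (38.6 against 154 CPM and 31.4 against 163 CPM), Gzmk (78.8 against 241 CPM and 167 against 355 CPM) and the tissue homing receptor Cxcr6 (151 against 413 CPM and 216 against 497 CPM). The same 15 held genes of other cell types, such as the haemoglobin gene Hbb-bs (2340 against 6002 CPM and 26.5 against 911 CPM) and Lyz2, and their part in the result was not tested. Of the 15 highest, 8 passed 2-fold in the control (0.377%), among them Dapl1 (61.5 against 10.7 CPM and 37.3 against 6.59 CPM) and Slamf6 (223 against 105 CPM and 110 against 46.7 CPM).

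Of 37 other genes of lymphoid tissue organization, 19 were measured in T cells, 4 of them higher and 1 lower with vancomycin. Among the 4, Ccl1, a CCR8 ligand, was 92.4 CPM with vancomycin and 3.78 CPM in the control (ratio 24.4, 17.8 to 34.5), and unlike Ccr8 it was higher in both Xist T cells (57.6 against 2.57 CPM) and Y gene T cells (125 against 2.05 CPM). Few cells carried Ccl1: over all kept cells 1948 UMIs lay in 127 cells with vancomycin and 119 in 31 in the control. The counting interval does not cover this spread between cells. Group 2 innate lymphoid cells had more Ccl1, at 431 and 389 CPM (ratio 1.11, 0.783 to 1.56). Lta, the lymphotoxin alpha gene, was 59.1 and 13.4 CPM (4.41, 3.69 to 5.31), and Il21, a cytokine of T cell help to B cells, 26.0 and 2.23 CPM (11.6, 7.66 to 18.5). The 1 lower gene was S1pr1, the receptor for exit from lymphoid tissue, at 23.7 and 117 CPM (0.203, 0.181 to 0.227). In CD4 conventional T cells, the gate where Cxcr5 was higher, Il21 was 65.2 and 5.44 CPM and Lta 104 and 19.8 CPM, and 3 of 18 measured genes were higher and 1 lower.

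In microglia 13 of the 37 genes were measured, 1 higher and 4 lower. The higher one was Cd40, a receptor for T cell help, at 31.7 and 9.43 CPM (3.36, 2.54 to 4.53), and the oxysterol receptor Gpr183 was among the lower at 83.6 and 207 CPM (0.403, 0.367 to 0.441). Tnfsf13b, which encodes the B cell survival factor BAFF, stood at 80.0 and 42.6 CPM (1.88, 1.63 to 2.17). Fibroblasts had 1 lower gene of 9, Icam1, an adhesion molecule, at 165 and 554 CPM (0.298, 0.245 to 0.361). Plasma cells had 1 lower of 6, Ltb (5.91 and 29.0 CPM), and NK cells 3 higher of 9, Ltb (754 and 296 CPM), Gpr183 (118 and 34.8 CPM) and Il7r (152 and 28.3 CPM). Astrocytes had 2 higher of 6, Vcam1 (244 and 110 CPM) and Cyp7b1 (105 and 21.1 CPM). Over all measured genes the median log2 ratio was -0.02 in T cells and -0.03 in microglia, and over the measured genes of this list it was 0.02 in T cells and -0.16 in microglia.

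Across 21 combinations of gate and library with at least 50 cells, which share gates and depth, members with related roles were compared by profile, as a description. Pearson's r of log2(CPM + 10) was 0.967 for Ccr4 and Ccr8 and 0.928 for Ccl22 and Ccl17, while Cxcl13 and Cxcr5 stood at -0.205. T cell subsets were not among these combinations, and Ccr8 and Ccr4 were each most like a T cell receptor gene (Trav9-1, 0.995, and Trav10, 0.989). Within the subsets their levels differed: in CD8 T cells with vancomycin Ccr4 stood at 1.27 CPM and Ccr8 at 153 CPM. The gene with the profile most like Cxcl12 was Foxf2 (r = 0.991), a transcription factor of mural cells and fibroblasts, followed by Foxc1 (0.987). Ccl17 was most like Gm36486 (0.989) and Flt3 (0.974), the dendritic cell growth factor receptor, and Ccr7 most like Pdcd1lg2 (0.931). The profile of Cxcr5 came nearest to Gm33843 (0.888), Fam129c (0.860) and Ccr6 (0.850), and that of Cxcl13 to Gm10790 (0.913), Hpn and Ang (both 0.895).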

How the data were processed

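The deposited matrices hold UMI counts per gene and cell, made with Cell Ranger 7.2.0 (vancomycin) and 6.0.1 (control) per the file headers, and mm10 and Partek per the submitters' processing notes. For cell calling and intron counting, settings were not given in the sources used here. All 10 members and all gene lists were chosen with earlier results of these data known. Cells with at least 500 UMIs, 200 genes and at most 20% mitochondrial UMIs were kept. A cell entered a gate with at least 3 of its 8 markers, and cells passing unlike gates were set aside as mixed in place of a doublet caller. Counts were summed per gate and library. Gates needed 50 cells in each library (20 for T cell subsets and for gates added later). Intervals are exact at 95%, and the floor is 3 counts. Named genes besides members were the 3 most alike in profile and, of a list of 37, those with the 3 highest and 3 lowest ratios per gate. The 15 genes most different between cells with and without a member, Ccl21b, Ccl21c, and Cxcl9 and Ccl1 by class of cell were added after values were seen. Code was tested on simulated data. Python 3.11.15, numpy 2.4.6, scipy 1.17.1, scanpy 1.11.5, R 4.3.3, edgeR 4.0.16 and DESeq2 1.42.0 (scaling factors only) were used.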

Additional observations from a re-analysis of the deposited data

Results flagged for a closer look

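In 5 cases library differences had opposite signs in cells with Xist and no Y gene and in cells with a Y gene and no Xist, with both counting intervals away from 1. The log2 ratio of vancomycin over control for Cxcl13 in microglia was -1.82 in Xist cells and 3.93 in Y gene cells. For Ccr8 the values were -0.55 and 2.49 in T cells, -0.89 and 4.09 in CD8 T cells (the latter against 1 control UMI), and -0.44 and 2.77 in CD4 conventional T cells. For Ccr7 in CD8 T cells they were -0.97 and 0.41. With 1 library per group the difference between the classes was not tested. CD8 and CD4 conventional T cells lie within the T cell gate, so the Ccr8 values share cells.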

How the results depend on the processing

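The count of 8 pairs at least 2-fold higher was 3 with 50 CPM added, 5 where any second gate set a cell aside, 15 with clusters in place of gates and 4 with cells thinned to 1000 UMIs. The count of 0 pairs at least 2-fold lower was 1 with 1 CPM added, 2 with clusters, 1 with thinned cells and 1 with every cell weighted equally. Shares over all measured genes were not computed under these settings, so these counts have no background to be set against. Other alternatives were chosen after seeing the data. Without cells of other gates that had a microglia marker UMI the counts were 5 higher and 3 lower, with a minimum of 20 cells 11 higher and 3 lower, in Xist cells 2 higher and 4 lower, and in Y gene cells 10 higher and 1 lower of 19 measured. Shares over all measured genes were not computed without the microglia marker cells, and in the classes of cells for some gates only. In Xist cells the log2 ratio of Cxcl13 was -1.82 in microglia, and the cause was not tested. In CD8 T cells it was -0.14, from 1 UMI against 10, with a ratio interval of 0.0130 to 3.96 that shows no direction. The sign differed from the reported one for 3 pairs with thinned cells, 2 where any second gate set a cell aside, 1 with clusters, 1 with equal weights, 1 without cells that had a microglia marker UMI, 5 in Xist cells and 2 in Y gene cells, and for 0 of the pairs that could be read under the other 11 alternatives. With thinned cells, second gates, clusters or equal weights the pairs were Cxcl13 and Ackr3 in fibroblasts, Ackr3 in astrocytes, Cxcr4 in plasma cells and Ccr7 in CD8 T cells. No paired analysis was possible because each group is 1 library, and for the same reason no library could be left out. Levels near 1 UMI, such as Cxcl13 in control astrocytes, are limited by depth.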
